A study of Mus musculus with 6 samples.

Results

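Genes for the receptors and enzymes of lysophosphatidic acid were read from expression arrays of mouse hair follicle stem cells. These cells renew the follicle from its bulge, divide rarely, and had been sorted on CD34 and α6-integrin. The list held 10 genes: the receptors Lpar1 to Lpar6 and the enzyme genes Enpp2, Liph, Plpp1 and Plpp3. A gene was taken where the platform annotation gave a feature (a transcript cluster of the array) that gene's symbol alone, and its brightest such feature by the mean of the arrays was used. This found 7 of the 10 among 22180 genes, each with 1 feature, namely 4 receptors and 3 enzymes. Lpar6 stood only on 2 features that also carry the symbol of Rb1, so no value is given for it. Lpar5 and Enpp2 matched no feature by symbol and were not analysed here.

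There were 6 Affymetrix arrays, 3 from wild-type (WT) mice and 3 from transgenic (TG) mice carrying K14-sPLA2-IIA, all at postnatal day 49, when follicles of normal mice are usually resting. The keratin 14 promoter (K14) is active in basal epidermal cells and the follicle's outer root sheath, and sPLA2-IIA, the product of Pla2g2a, is a secreted phospholipase that cuts membrane phospholipids into fatty acids and lysophospholipids. The sources used here give neither the strain, nor the species of the transgene's coding sequence, nor the number of mice per array. The p-values therefore measure only the spread between these samples, which may be technical.

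Lysophosphatidic acid is a small lipid that signals through G protein-coupled receptors. Lpar1, Lpar2 and Lpar3 belong to the receptor family shared with the sphingosine 1-phosphate receptors, and Lpar4, Lpar5 and Lpar6 to a family related to the purine receptors. Enpp2 encodes autotaxin, which makes the lipid from lysophosphatidylcholine outside cells, and Liph encodes a membrane-bound lipase that makes it from phosphatidic acid. Plpp1 and Plpp3 encode lipid phosphate phosphatases that remove its phosphate and so end the signal. In human skin, inherited loss of LIPH or LPAR6 causes woolly, sparse hair.

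Upstream sequences are shown for Lpar3 and Liph, the receptor gene and the enzyme gene whose values ranged most widely over the arrays. They come from RefSeq (build GRCm38.p6), where 8 of the 10 genes matched by symbol and Enpp2 and Plpp1 did not, and each ends at the most upstream annotated start of its gene. The Lpar3 stretch is chr3:146220711-146220960 on the plus strand (250 bases), and the Liph stretch is chr16:21995659-21995792 on the minus strand (134 bases). Capitals mark the GC box GGGCGG on either strand.

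Lpar3: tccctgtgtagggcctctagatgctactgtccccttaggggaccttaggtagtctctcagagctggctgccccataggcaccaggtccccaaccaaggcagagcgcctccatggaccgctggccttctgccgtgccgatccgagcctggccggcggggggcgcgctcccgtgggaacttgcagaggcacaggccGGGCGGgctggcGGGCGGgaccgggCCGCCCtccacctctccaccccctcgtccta

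Liph: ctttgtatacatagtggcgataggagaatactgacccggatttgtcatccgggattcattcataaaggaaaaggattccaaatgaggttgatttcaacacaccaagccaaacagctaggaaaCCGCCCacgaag

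The Lpar3 stretch held 3 GC boxes, the first beginning 56 bases before the start, and 32.7% of 32851 RefSeq promoter windows of that length hold at least 1. The Liph stretch held 1, beginning 12 bases before the start, and 14.5% of windows of 134 bases hold at least 1. These shorter windows are the far upstream part, the first 134 bases, of the windows of 250 bases. The Liph stretch instead reaches its gene's start, so the shares for 134 bases describe other positions than its own. The AP-1 motif (TGANTCA), the TATA box (TATAAA), the CCAAT box (the letters of its name) and the TEAD motif (GGAATG) were searched on both strands and had 0 matches in either stretch. In all windows of 250 bases, 6.75% hold the AP-1 motif, 12.4% the TATA box, 33.8% the CCAAT box and 12.6% the TEAD motif. In the windows of 134 bases, which lie farther upstream, the shares in the same order are 3.47%, 6.66%, 18.0% and 7.29%. These are matches of letters only, and none of the motifs was tested against the array values.

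The values are the authors' deposited expression values, read as log2, and are given below in the order of array numbers 1, 2 and 3. Pla2g2a, which checks the genotype labels, read 6.77, 5.75 and 5.90 in WT and 12.61, 12.57 and 12.39 in TG. Its difference of 6.38 ± 0.27 (SE) had an adjusted p of 0.00255 in limma, and it was the 1 gene of 22180 past the threshold of 0.05 (0.00451%). Without TG array 1 the Pla2g2a difference was 6.34, but its adjusted p in limma was 0.0650 and 0 genes passed. The arrays numbered 3 stood apart from the others in both genotypes. Of the variance, 64.6% lay along the first principal component, which set WT array 3 (score 50.2) and TG array 3 (53.3) apart. TG array 1 (-2.78) lay between these and WT array 1, WT array 2 and TG array 2 (-34.3 to -32.7). Cd34, one of the sorting markers, read 9.78, 9.89 and 13.07 in WT and 11.57, 9.65 and 12.42 in TG, while Itga6, the gene of the other, ranged over 0.48. The bulge genes Krt15 (13.21 to 13.50) and Sox9 (10.65 to 12.16) were bright on all arrays.

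Of the 7 lysophosphatidic acid genes, 0 passed the threshold in the comparison of TG with WT, and 0 had an unadjusted p under 0.05, against 2.77% of all genes. The median TG minus WT difference of the 7 was 0.03, and that of all genes -0.01. The TG values lay above the WT values without overlap for 1 of the 7, Lpar2. Of all genes 7.20% did not overlap in either direction and 3.99% were higher in TG, so 1 of 7 is near the background. With arrays of the same number treated as pairs (replicate number as a block), 2 of the 7 had an unadjusted p under 0.05, Liph and Lpar2, against 8.45% of all genes. Their paired adjusted p-values were 0.551 and 0.570 in limma.

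**Figure D1:**
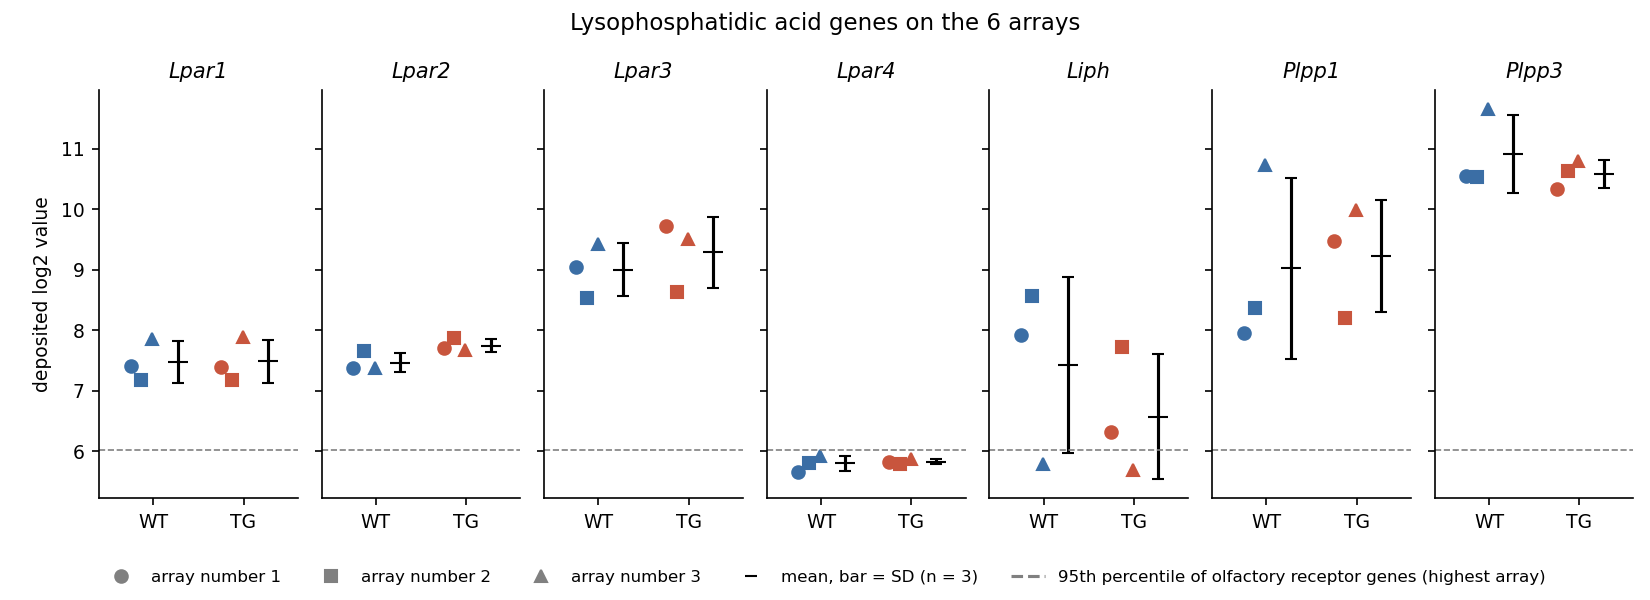
Deposited log2 values of the 7 measured genes (vertical axis, shared by the panels) in WT and TG; each point is 1 array, its shape gives the array number, and bars show the mean and SD of 3 arrays. Levels are not comparable between genes, which have different probes; Lpar2 is the gene whose genotypes do not overlap, Lpar4 lies below the dashed line on all 6 arrays, and Liph and Plpp1 range over 2.89 and 2.77 log2 units.

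Among the receptors, Lpar2 showed the most even difference. Lpar2 read 7.38, 7.65 and 7.37 in WT and 7.70, 7.87 and 7.68 in TG. All TG arrays lay above all WT arrays, though TG array 3 exceeded WT array 2 by little. The means were 7.47 ± 0.16 in WT and 7.75 ± 0.10 in TG (SD, n = 3 each). The difference was 0.28 ± 0.14 (SE), or 1.22-fold, with a 95% interval of -0.05 to 0.61. Its unadjusted p was 0.0845 and its adjusted p 0.99996 in limma, and the two-sided p of an exact permutation test was 0.1, the lowest value possible with 3 arrays per genotype. Between arrays of the same number it was higher in TG by 0.33, 0.21 and 0.30, and paired by number the unadjusted p was 0.0363. The Lpar2 difference was positive in each of 15 alternative fits, between 0.20 and 0.37. Some of these fits, such as pairing by number, could not change it. The list of dermal fibroblast markers also ran higher in TG, with 7 of 8 genes above 0, a median difference of 0.30 and 0 genes at an unadjusted p under 0.05. Paired by number, 4 of the 8 were higher at that p, against 8.45% of all genes in either direction. Without overlap 1 of the 8 was higher in TG, against 3.99% of all genes. The fibroblast list had means of 6.31, 6.20 and 6.33 in WT and 6.51, 6.59 and 6.63 in TG. On all arrays 3 of its 8 genes, Pdgfra among them, lay within the range of olfactory receptor genes. The much brighter bulge stem cell list had a similar median difference of 0.29, with 9 of 11 genes above 0. Its means were 10.24, 10.24 and 11.49 in WT and 11.21, 10.24 and 11.20 in TG. Unlike Lpar2, the list was higher in TG between the arrays numbered 1 and lower between those numbered 3. It had 0 genes at an unadjusted p under 0.05 in limma, also when paired by number. The part of the cells of either list in the Lpar2 values was not tested.

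For Lpar3 the spread within a genotype exceeded the difference between the genotypes. Its values were 9.04, 8.54 and 9.43 in WT and 9.72, 8.63 and 9.51 in TG. In each genotype array 2 was the lowest, and the genotypes overlapped. The difference was 0.28 ± 0.34 (SE), with a 95% interval of -0.54 to 1.10 and an exact two-sided permutation p of 0.5. The size equals that of Lpar2, but the standard error is larger. The TG arrays exceeded the WT arrays of the same number by 0.68, 0.09 and 0.08, so array 1 gave most of the difference, which was 0.07 without TG array 1 and 0.61 without TG array 2. In the absence of TG array 2 the genotypes did not overlap, as for 15.8% of all genes.

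Lpar1, the receptor gene with the broadest known expression, gave nearly the same values in both genotypes. It read 7.41, 7.18 and 7.85 in WT and 7.40, 7.18 and 7.88 in TG. Arrays with the same number differed by at most 0.03, and in each genotype array 3 was the highest and array 2 the lowest. The difference of 0.01 ± 0.25 (SE) had a 95% interval of -0.58 to 0.60, so a 1.51-fold higher level in TG lies inside it. Its sign changed with 1 array left out, from -0.19 without TG array 3 to 0.20 without WT array 3. Paired by number the SE was 0.10, and the unadjusted p was 0.938.

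Lpar4 was dim on all arrays. It read 5.67, 5.82 and 5.92 in WT and 5.82, 5.80 and 5.87 in TG. With no detection values at hand, 1105 olfactory receptor genes, which skin is taken not to express, served to mark dim signal. Their 95th percentile lay between 5.88 and 6.03 on the 6 arrays. Lpar4 lay below it on each of the 6, so its difference of 0.03 ± 0.13 (SE) carries little information about its RNA. The other 6 genes were above it on all arrays, except Liph on both arrays numbered 3.

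**Figure D2:**
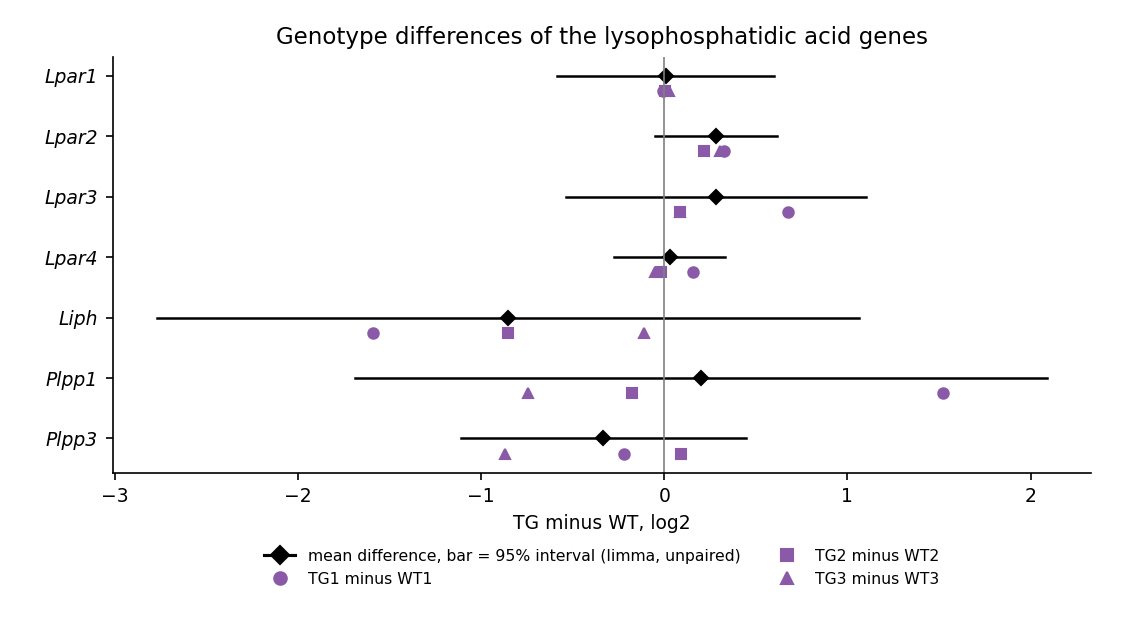
TG minus WT differences of the 7 genes on the log2 scale (horizontal axis): diamonds and bars give the mean difference with its 95% interval from the unpaired limma fit, and purple symbols the differences between arrays of the same number. All 7 intervals include 0; Lpar2 is higher and Liph lower in TG in each of the 3 same-number differences.

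Liph, the lipase gene, had the largest difference in size of the 7 and the widest spread. It read 7.92, 8.57 and 5.80 in WT and 6.33, 7.72 and 5.69 in TG. Both arrays numbered 3 lay within the olfactory receptor range, and TG array 1 just above it, while WT arrays 1 and 2 and TG array 2 were bright. The mean was 7.43 ± 1.45 in WT and 6.58 ± 1.04 in TG (SD, n = 3 each). The difference of -0.85 ± 0.80 (SE) had a 95% interval of -2.77 to 1.06, an unadjusted p of 0.325 and an adjusted p of 0.99996 in limma. The exact permutation p, two-sided, was 0.4.

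Between arrays of the same number, the TG minus WT difference of Liph was -1.59 for number 1, -0.85 for number 2 and -0.11 for number 3. The last pair was dim on both sides, which limits what difference it could show. Paired by number the difference kept its size with an SE of 0.28 and an unadjusted p of 0.0242. Without both arrays numbered 3 it was -1.22 ± 0.50 (SE), with no overlap between genotypes, as for 37.7% of all genes in that fit. The negative sign held in each of 15 alternative fits, though some, such as pairing by number, could not change the difference. Its size ranged from -0.28 without WT array 2 to -1.67 without WT array 3, where the unadjusted p was 0.0293.

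Markers of some other cell types moved with Liph across the arrays. The list of suprabasal epidermis genes, made in the layers above the basal cells, had 8 of 8 genes measured and 0 of them within the olfactory receptor range on all 6 arrays. Its mean log2 value was 11.69, 11.85 and 9.97 in WT and 10.38, 11.65 and 9.43 in TG, which puts the 6 arrays in the same order as Liph does. Krt10, its defining gene, read 14.05, 14.12 and 13.26 in WT and 13.69, 14.10 and 13.02 in TG. In TG the list ran below WT for all 8 genes, with a median difference of -0.67 and 0 genes at an unadjusted p under 0.05. Paired by number, 3 of the 8 were lower at that p, against 8.45% of all genes in either direction.

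The haematopoietic and T cell list (8 of 10 measured) followed the arrays in a similar way, with means of 8.18, 8.62 and 7.10 in WT and 7.60, 8.87 and 6.81 in TG. On both arrays numbered 3, 7 of its 8 genes were below the other arrays of their genotype, as were 7 of the 8 suprabasal genes, against 34.5% of all genes. Ptprc, the pan-leukocyte gene, read 7.16, 7.69 and 6.17 in WT and 6.86, 8.34 and 5.63 in TG. The sebocyte list (7 of 7 measured) had means of 8.11, 7.99 and 7.05 in WT and 7.54, 7.96 and 7.32 in TG. Only 2 of its 7 genes were below the other arrays of their genotype on both arrays numbered 3, and 1 was above. These counts are no higher than the shares of all genes, 34.5% and 23.5%. Its defining gene Mc5r lay within the olfactory receptor range on both arrays numbered 3. The inner root sheath and hair shaft list (9 of 10 measured) marks follicle layers known to make LIPH. Its means were 7.15, 5.96 and 5.94 in WT and 6.38, 6.19 and 5.90 in TG. On all arrays 2 of its 9 genes lay within the olfactory receptor range. On both arrays numbered 3, 5 of its 9 genes were below the other arrays of their genotype, as Liph was, and 2 were above. The shares of all genes were 34.5% and 23.5%. Its defining gene Krt71, not among the 5, read 8.09, 5.63 and 5.61 in WT and 6.98, 5.96 and 6.19 in TG, a different order from Liph. The part of these cells in the Liph values was not tested.

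Plpp1, a phosphatase gene, moved the opposite way. Its values were 7.96, 8.38 and 10.73 in WT and 9.48, 8.20 and 9.99 in TG. The high arrays were both numbered 3 and TG array 1, the arrays on which Cd34 was also high, and the genotypes overlapped widely. The difference of 0.20 ± 0.79 (SE) had a 95% interval of -1.69 to 2.09 and an exact two-sided permutation p of 0.9. Between arrays of the same number TG minus WT was 1.52, -0.18 and -0.74. The sign turned negative without WT array 1 (-0.33), without WT array 2 (-0.12) and without TG array 3 (-0.18), and the difference was 1.05 without WT array 3.

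Plpp3, the other phosphatase gene, read 10.54, 10.54 and 11.66 in WT and 10.33, 10.63 and 10.79 in TG. Apart from WT array 3, which stood more than 0.8 above the rest, the arrays lay within 0.5 of each other. The difference was -0.33 ± 0.33 (SE), with a 95% interval of -1.11 to 0.45 and an exact two-sided permutation p of 0.7. It came mostly from WT array 3: without that array it was 0.04 ± 0.18 (SE). Without both arrays numbered 3 it was -0.06 ± 0.15 (SE).

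**Figure D3:**
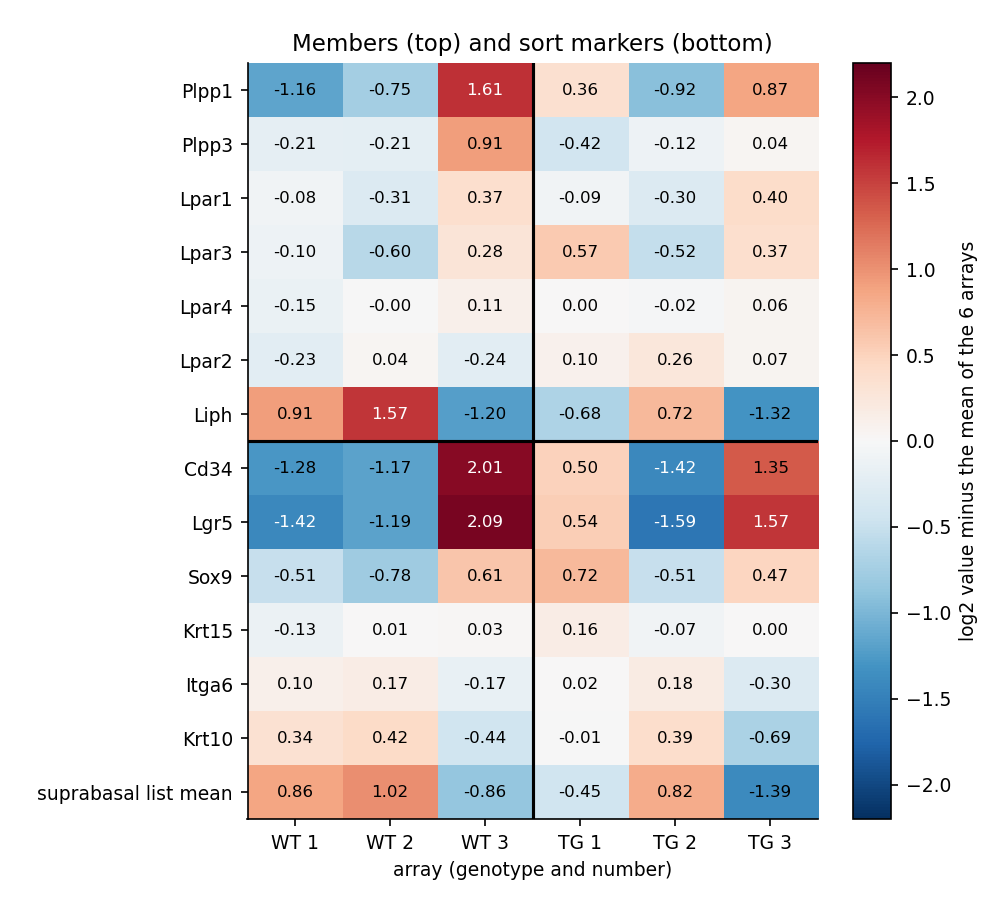
Log2 values minus each gene's mean over the 6 arrays (colour and printed numbers) for the 7 genes above the line and for bulge and suprabasal markers below it; columns are arrays by genotype and number. Plpp1 has the same high and low arrays as Cd34 and Lgr5, and Liph is high where the suprabasal list is high.

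The spread of Liph and Plpp1 within genotypes was among the largest on the arrays. Their within-genotype SD was 1.26 and 1.24, larger than that of 99.1% of all genes for each, while Lpar2 (0.13) exceeded 19.4% and Lpar4 (0.10) exceeded 8.42%. Lpar3 (0.52), Plpp3 (0.49) and Lpar1 (0.35) exceeded 89.5%, 88.1% and 76.0%. On both arrays numbered 3, Lpar1, Plpp1, Plpp3 and the dim Lpar4 were above the other arrays of their genotype. They were 4 of the 7 genes, against 23.5% of all genes. Liph and Lpar2 were below, for Lpar2 by 0.03 or less from the nearest array, against 34.5% of all genes. Lpar3 was neither, since TG array 1 was its highest TG array.

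Likeness of pattern was measured as the root mean square difference over the 6 arrays between log2 values centred on each gene's mean, so that 0 means parallel values. Of the 21 pairs among the 7 genes, Liph and Plpp1 were the farthest apart (2.09). The closest, Lpar2 and Lpar4 (0.19), were the pair with the least variation. Plpp1 was 0.38 from Cd34 and 0.49 from Lgr5, a bulge and hair germ marker, where its median distance to all genes was 1.06. Liph was 0.73 from Krt10 and 2.44 from Cd34, with a median of 1.11. Nearness to Krt10 was not particular to Liph, since Lpar1 (0.71), Lpar2 (0.43) and Lpar4 (0.49), which varied less, were nearer. Each of those was farther from Krt10 than its own median distance to all genes (0.36, 0.27 and 0.22). These distances describe 6 arrays that differ by genotype and by number, and have no test.

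Over all genes, the patterns most like that of Plpp1 were those of Ptn, which encodes the growth factor pleiotrophin (0.15), Ism1, which encodes the secreted protein isthmin (0.16), and Adcy1, an adenylyl cyclase gene (0.17). Ptn read 9.31, 9.54 and 11.81 in WT and 11.03, 9.50 and 11.38 in TG. For Liph they were those of Rasa3, which encodes a GTPase-activating protein of Ras-type proteins (0.17), Xkrx (0.21) and Tmprss11f, a membrane serine protease gene (0.21). Rasa3 read 10.88, 11.01 and 8.54 in WT and 9.19, 10.44 and 8.25 in TG. In each of these the arrays numbered 3 stood on the same side as in the lysophosphatidic acid gene. This follows from the choice of the genes by likeness over the same arrays and is not a separate result.

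Many dermal papilla and endothelial genes were, like Plpp1, Plpp3 and Lpar1, higher on the arrays numbered 3. There 6 of 8 dermal papilla genes and 5 of 8 endothelial genes were above the other arrays of their genotype, against 23.5% of all genes. The dermal papilla list had means of 6.01, 6.24 and 6.63 in WT and 6.08, 6.13 and 6.45 in TG, with 3 genes within the olfactory receptor range on all arrays. The endothelial list had means of 5.72, 5.59 and 6.12 in WT and 5.75, 5.78 and 6.18 in TG, with 3 such genes. Their defining genes Corin (6.20 to 7.01) and Pecam1 (6.12 to 6.99) lay above that range, close to its upper end. The bulge list (11 of 12 measured) had means of 10.24, 10.24 and 11.49 in WT and 11.21, 10.24 and 11.20 in TG. Of its 11 genes 4 were higher on both arrays numbered 3, against the same 23.5%, and 2 were lower. Pdgfra, the defining gene of dermal fibroblasts, and Adipoq, that of adipocytes, lay within the olfactory receptor range on all 6 arrays. The part of other cells in these values was not tested. In a bulk sample, fewer cells of a type and less RNA per cell cannot be told apart.

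**Figure D4:**
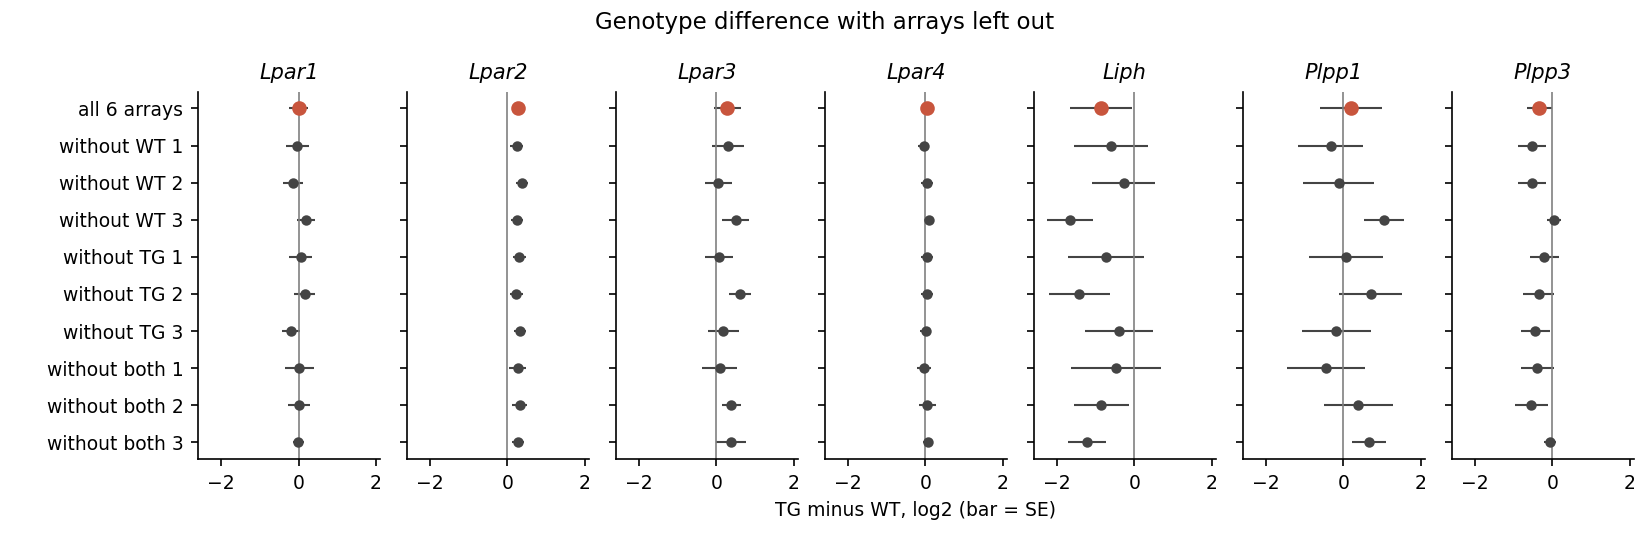
TG minus WT difference of each gene on the log2 scale (horizontal axis, bars are SE) with all 6 arrays (red) and with 1 array, or both arrays of a number, left out. Lpar2, Lpar3 and Liph keep their sign throughout, while Lpar1, Lpar4, Plpp1 and Plpp3 cross 0.

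The wider pathway was read from 7 lists with 67 genes, of which 65 were measured. After adjustment over all genes 0 of them passed. At an unadjusted p under 0.05 there was 1 higher in TG, Hbegf, and 0 lower, against 2.77% of all genes in either direction. Paired by number, 7 were higher and 5 lower, 12 of 65 in all, against 8.45% of all genes, and 0 passed after adjustment. The genotypes did not overlap for 1 gene higher (Hbegf) and 2 lower (S1pr5 and Rhbdf1) in TG, below the 7.20% of all genes. The median difference of the 65 genes was -0.03.

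Other enzymes, listed as producers of lysophosphatidic acid, had a median difference of -0.03, with 4 of 9 above 0 and 5 below. Gdpd1, a lysophospholipase D gene, differed by 0.48 ± 0.22 (SE) and read 7.60, 7.79 and 7.04 in WT and 8.13, 7.98 and 7.75 in TG. The glycerol-phosphate acyltransferase genes Gpat3 and Gpat4 differed by 0.47 ± 0.34 and 0.22 ± 0.15. Gpat3 lay within the olfactory receptor range on WT arrays 1 and 2. Enzymes that consume the lipid had a median of 0.02 (5 above 0 and 4 below). Plpp2, the third phosphatase of the Plpp1 type, differed by 0.37 ± 0.19 (SE), reading 9.47, 9.85 and 10.05 in WT and 10.16, 9.98 and 10.33 in TG. Its unadjusted p was 0.0952, and 0.0467 when paired by number.

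Enzymes that form or remove lysophosphatidylcholine, the substrate of autotaxin, had a median of -0.02, with 4 of 11 above 0. Pnpla6, a lysophospholipase gene, differed by -0.32 ± 0.17 (SE), Lpcat2 by -0.22 ± 0.19 and Lypla2 by 0.15 ± 0.14. Of the 8 measured related receptors, 4 were above 0 and 4 below, with a median of 0.01. S1pr5, a sphingosine 1-phosphate receptor gene, read 9.71, 9.69 and 9.64 in WT and 9.54, 9.51 and 9.42 in TG. Its genotypes did not overlap, with a small difference of -0.19 ± 0.12 (SE) and an unadjusted p of 0.143. P2ry10 differed by 0.42 ± 0.21 but lay within the olfactory receptor range on all arrays. Enzymes and exporters of sphingosine 1-phosphate had a median of -0.23, with 2 of 8 above 0. Sphk2, a sphingosine kinase gene, differed by -0.66 ± 0.30 (SE) and Sgpl1, the lyase gene, by -0.35 ± 0.24. Paired by number, their unadjusted p-values in limma were 0.0259 and 0.0484. In that fit 3 of the 8 genes were lower and 1 higher at an unadjusted p under 0.05, against 8.45% of all genes in either direction.

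**Figure D5:**
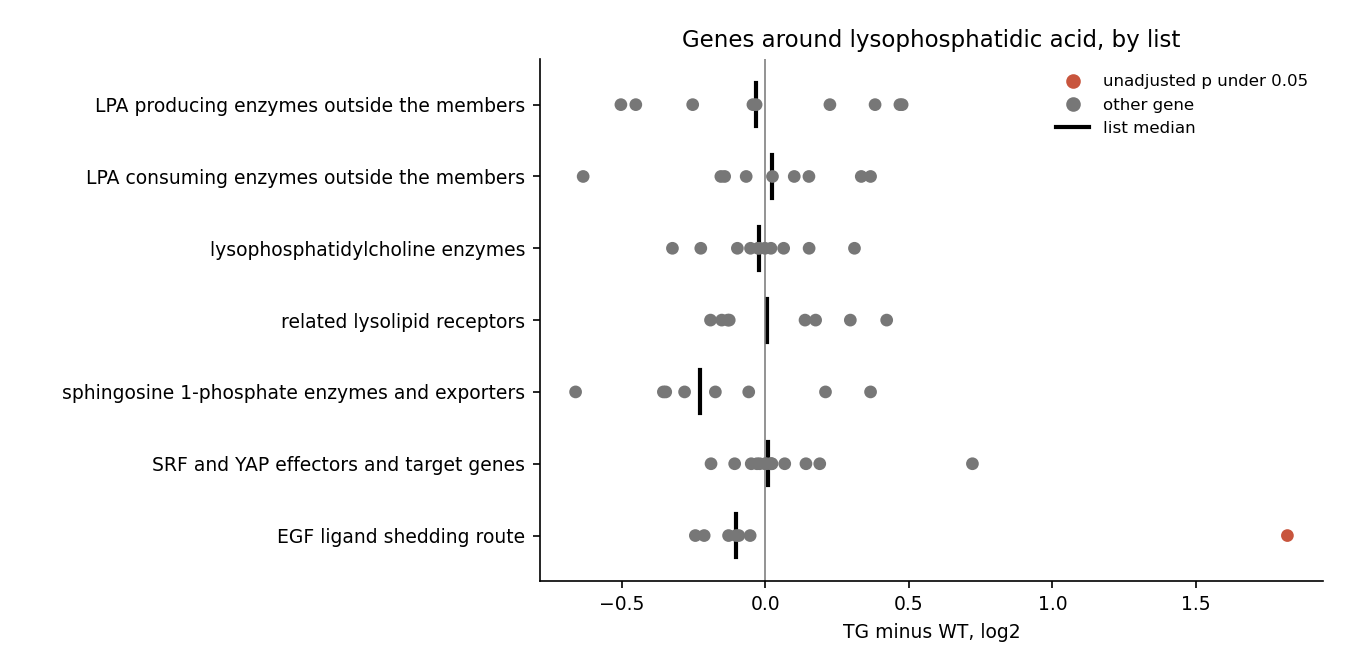
TG minus WT differences on the log2 scale (horizontal axis) of the measured genes of each of the 7 pathway lists; each point is 1 gene, the black bar is the list median, and a red point has an unadjusted p under 0.05. The list medians lie between -0.23 and 0.02, and the red point is Hbegf.

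Further downstream of the receptors, the list of SRF and YAP effectors and target genes had a median of 0.01 (8 of 14 above 0). Ccn1, a matricellular target gene, differed by 0.72 ± 0.31 (SE), with TG array 2 the highest at 10.22.

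The shedding of EGF ligands, a step that links the Liph route to the EGF receptor in follicle cells, was covered by 7 measured genes with a median of -0.10. Only Hbegf, encoding such a ligand, was above 0. It read 8.80, 8.34 and 7.71 in WT and 10.47, 11.01 and 8.83 in TG, a difference of 1.82 ± 0.57 (SE) with an unadjusted p of 0.0166 and an adjusted p of 0.99996 in limma. Between arrays of the same number Hbegf was higher in TG by 1.67, 2.67 and 1.12, and paired by number its unadjusted p was 0.00109 and its adjusted p 0.531 in limma. The arrays did not overlap, though WT array 1 and TG array 3 were close. Tgfa, encoding another ligand, differed by -0.24 ± 0.31 and Rhbdf1, an inactive rhomboid gene, by -0.21 ± 0.12.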

How the data were processed

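Hair follicle stem cells were profiled on 6 arrays (3 WT, 3 TG), grouped by the sample titles. The authors' deposited values were read as log2, from their range and nearly equal medians (5.90 to 5.99). The log base, summarisation, scaling and build were not given in the sources used here, and folds hold only for base 2. Affymetrix Expression Console 1.4.1 was used with Transcriptome Analysis Console, per the submitters' processing notes. Of 41345 features, 23521 had 1 symbol; the brightest per gene left 22180 genes, with no filter. The Entrez ID of 23328 features was found in RefSeq's GRCm38.p6 table, with 0 symbols updated.

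The genotypes were compared by limma 3.58.1 (R 4.3.3), with lmFit on genotype alone, then eBayes. Two-sided p-values were adjusted by Benjamini and Hochberg's method across the 22180 genes, and the threshold was 0.05. The test was checked on simulated data. Single genes also had an exact permutation test. For arrays, their number limits the precision. Deviations from the genotype means correlated at 0.20, 0.67 and 0.74 between arrays numbered 1, 2 and 3. All exceed 0.1, so an alternative fit paired the arrays by number. The labels name no day or litter in common, and WT array 1 correlated more with TG array 2 (0.50).

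The members and lists were chosen with earlier results of these data known, and 1 pathway list is not reported here. Besides the members, the rule named Pla2g2a, bulge and defining marker genes, up to 3 genes of smallest p per pathway list, and the 3 genes most like each of the 2 most variable members. Alternatives left out arrays or used the replicate block, quantile normalization, the mean of features, brighter genes, a variance trend or array weights.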

Additional observations from a re-analysis of the deposited data

How the results depend on the processing

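Over 15 alternatives, no difference of the 7 genes passed the adjusted threshold (lowest adjusted p = 0.295 in limma), and 92 of 104 kept their sign. Lpar2, Lpar3 and Liph kept it in all 15. The replicate block, the variance trend, the mean of features and the brighter genes could not change these differences. Kept signs in those fits are no separate support. Lpar4 has no value among genes above the median level. With 1 array left out, the difference ran from -0.19 to 0.20 for Lpar1, from -0.039 to 0.091 for Lpar4, from -0.33 to 1.05 for Plpp1 and from -0.52 to 0.042 for Plpp3. The sign also turned for Lpar1 with quantile normalization (-0.0043) and without both arrays numbered 3 (-0.0018), and without both arrays numbered 1 for Lpar4 (-0.033) and Plpp1 (-0.46). The median of the 7 ran from -0.18 (without TG array 3) to 0.20 with 1 array left out.

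Genes at an unadjusted p under 0.05 in limma numbered 2 of 7 with the replicate block (Liph and Lpar2, against 8.45% of all genes). They numbered 2 with array weights (Liph and Lpar3, against 14.1% of all genes). With 1 array left out they numbered 0 to 1, against 1.29% to 4.79% of all genes. The 1 was Liph without WT array 3, where the share of all genes was 4.79%. Genes without overlap numbered 1 to 2 with 1 array left out (11.4% to 23.2% of all genes), and 2 without both arrays numbered 2 (Lpar2 and Lpar3, against 22.7%) or 3 (Lpar2 and Liph, against 37.7%). Genes past the adjusted threshold numbered 0 to 1 with 1 array left out, 0 without TG array 1, and 0 without both arrays numbered 2 or 3, where fewer samples were fitted. The block changed no call at the adjusted threshold. The cause of the other shifts was not tested. With Lpar4 and 1 pair of Liph arrays in the dim range, signal limits what could be seen there.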
